A study of Homo sapiens with 9 samples.

Results

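The genes described here encode ATP-dependent chromatin remodelers and their close partners: the SMARC, ARID and CHD families together with ATRX, DAXX, PBRM1 and INO80. They were chosen by symbol, namely those starting with SMARC or ARID, those formed by CHD, a number and at most 1 letter, and these 4 single genes, without Y-linked genes. This gave 36 of 18132 genes measured with a probe set that names 1 gene, namely 13 SMARC, 9 ARID, 10 CHD and 4 other genes, with 127 of 44988 such probe sets. ARID4A had no probe set of its own, and 1 further probe set that names ARID4B together with RBM34 was not used. The cells were LAN-1, an established human neuroblastoma (NB) cell line spiked into tumor-free bone marrow. Mononuclear cells were isolated on a density gradient, and LAN-1 cells were recovered with magnetic beads through GD2, a ganglioside on their surface. In the condition labelled frozen with gradient (n = 3 arrays), the mononuclear cells were kept in 20% DMSO for 7 days at -80°C, thawed, and passed over an additional density gradient before the bead-based enrichment. In the condition labelled frozen without gradient (n = 3), the thawed cells went directly to the beads, and in the fresh condition (n = 3) the cells were enriched without freezing. Which arrays belong to which frozen condition was taken from the deposited labels alone. Under these labels more genes passed the criterion used below, against fresh, without gradient than with it, which is the reverse of the order in the study's own account. Whether the labels of the frozen conditions were exchanged was not tested, and an exchange would swap the handling step to which every value of these conditions refers. All arrays come from 1 cell line after contact with marrow, a gradient and bead-based enrichment, and none from cells that had not been spiked.

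Chromatin remodelers use ATP to slide, eject or exchange nucleosomes. The BAF and PBAF complexes contain SMARCA4 or SMARCA2 as their motor, a set of shared core subunits, and either an ARID1 protein (BAF) or ARID2 and PBRM1 (PBAF). ISWI motors such as SMARCA5 space nucleosomes, CHD3, CHD4 and CHD5 are motors of the NuRD complex, which also carries histone deacetylases, and ATRX works with DAXX to deposit the histone variant H3.3 at telomeres and repeats. In NB, ATRX, ARID1A and ARID1B are known targets of mutation or deletion, and CHD5 lies on a chromosome arm that is often lost.

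Arrays labelled frozen without gradient had the smallest difference between control probe sets at both ends of the GAPDH transcript, with fresh replicate 3 close to them. The GAPDH 3' minus 5' difference on the log2 scale was 6.73, 2.90 and 2.07 with gradient, 1.09, 1.45 and 0.94 without gradient, and 4.92, 3.56 and 1.56 in fresh replicates 1, 2 and 3. A high value means that little signal came from the 5' end of this transcript. The mean 3' minus 5' difference of 4 bacterial control transcripts was 2.31 to 4.40 with gradient, 1.82 to 1.98 without gradient and 2.06 to 3.75 in fresh arrays, again highest on gradient replicate 1. For the ACTB controls the difference was 4.24 to 5.29 with gradient, 3.33 to 4.11 without gradient and 3.88 to 5.41 in fresh arrays. Arrays without gradient and fresh arrays thus overlapped in ACTB. Gradient replicate 1 also stood apart from the other arrays over all genes, with a median correlation of 0.868 with them, where the other arrays had 0.941 to 0.985. Markers of NB cells were measured for 12 of 13 genes fixed for this purpose. The log2 of their summed signal was 13.52 to 14.08 with gradient, 14.29 to 14.79 without gradient and 13.97 to 14.16 in fresh arrays. This sum took, per gene, the probe set that varied most over the arrays. Without gradient against fresh, MYCN, HAND2, ISL1, STMN2 and GATA3 had log2 fold changes of 1.91, 1.48, 1.10, 1.08 and 0.82. Their probe sets with the highest mean signal had -0.21, 0.08, 0.01, -0.23 and -0.30 instead. TH stayed above 0 with 1.13 and 0.67, and the other markers had -0.11 to 0.61 with either. Whether arrays without gradient held more RNA of NB cells was not tested. The sum of 10 granulocyte markers was 8.67 to 10.64 with gradient, 7.80 to 9.28 without gradient and 10.10 to 12.32 in fresh arrays. The red cell marker HBB, which encodes a globin, had log2FC values of -2.09 with gradient and -3.97 without gradient against fresh, both past the criterion used below. Of 10 red cell markers listed only 3 were measured, and the other 2 did not pass. ALAS2 had 0.43 with gradient and -0.02 without gradient, and AHSP had -0.03 and -0.45. The sum of 6 platelet markers was 8.67 to 9.63 with gradient, 7.64 to 8.69 without gradient and 7.85 to 8.98 in fresh arrays, and that of 8 monocyte markers was 8.83 to 11.09 with gradient, 8.30 to 9.74 without gradient and 8.65 to 9.36 in fresh arrays. In bulk RNA of this kind, fewer cells of a type and less RNA per cell cannot be told apart. The part of labelling, of other marrow cells or of 1 array in the results below was not tested beyond the values given with them.

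The median signal of the members lay above that of all genes on every array. The median log2 signal of the 36 members was 6.46, 7.58 and 7.67 with gradient, 8.10, 7.93 and 7.91 without gradient, and 7.42, 7.57 and 7.73 in the fresh arrays. The median of all genes on the same arrays was 5.52 to 5.57. Without gradient every array had a higher member median than any array of the other conditions, and gradient replicate 1 had the lowest. Of the 36 members, 21 (58.3%) had their lowest signal on gradient replicate 1, as did 23.9% of all genes. Fresh replicate 1 was the lowest for another 5. The members varied more than genes in general, with a median SD over the 9 arrays of 0.476, against 0.307 for all genes, and 8 of 36 (22.2%) had an SD over 1, against 3.87% of all genes. Each gene is represented by its most variable probe set, out of 127 for the 36 members and 44988 for 18132 genes. The part of this choice and of the higher signal of the members in their spread was not tested.

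**Figure D1:**
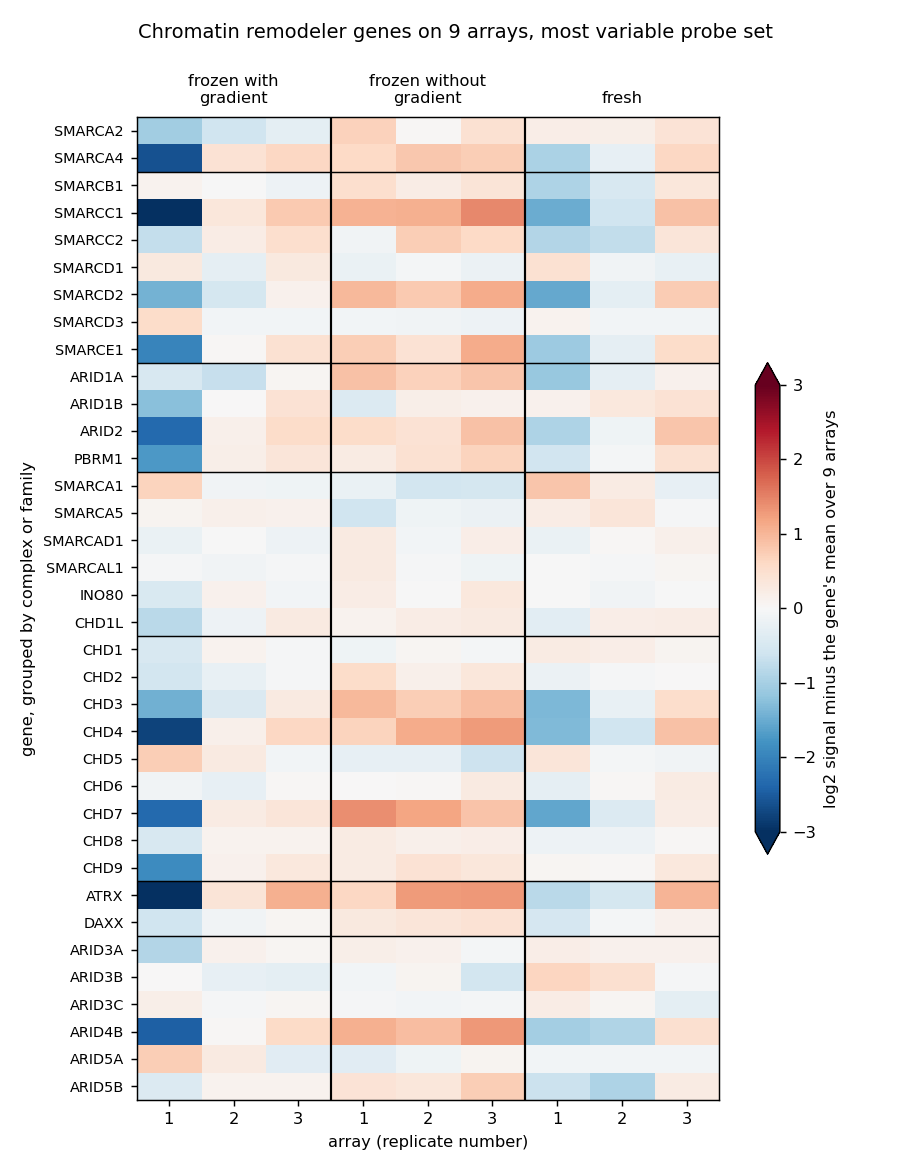
Log2 signal of 36 chromatin remodeler genes on each of 9 arrays, as the difference from the gene's mean over the arrays, with columns for arrays grouped by condition and rows for genes grouped by complex or family. Gradient replicate 1, where 21 of 36 genes were lowest, and fresh replicate 1 form pale to deep blue columns for many BAF subunits, CHD3, CHD4, CHD7, ATRX and ARID4B, while SMARCA5, SMARCAD1, SMARCAL1 and INO80 stay closer to 0.

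In the arrays labelled frozen without gradient, 4 remodeler genes rose against the fresh arrays and none fell. They were ARID1A, the BAF-defining subunit, SMARCD2, a BAF core subunit, CHD3, a NuRD motor, and CHD7, a remodeler of enhancers in neural crest. A gene counted as changed where its log2 fold change (log2FC) exceeded 1 in size and the unadjusted p, by limma fitted over all genes, was under 0.05. SE below is the standard error of the log2FC. Among all genes 2.19% were higher and 0.281% lower at this criterion. No member had an adjusted p under 0.05, and 11 of 36 had an unadjusted p under 0.05, against 13.4% of all genes. Signals without gradient lay above those of all fresh arrays in 10 members, where 11.8% of all genes did so, and below them in 3, CHD1, CHD5 and SMARCA5, where 13.8% did so. Over the 36 members the median log2FC was 0.25 and 25 were above 0. The median of all genes was -0.08, and 38.9% of them were above 0.

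Among these 4 genes ARID1A had the smallest SE. ARID1A had log2 signals of 6.35, 6.15 and 6.28 without gradient and 4.32, 5.20 and 5.60 in the fresh arrays. These conditions did not overlap, and fresh replicate 1 was lowest. The means were 6.26 ± 0.10 without gradient and 5.04 ± 0.65 fresh (SD, n = 3 each), a log2FC of 1.22 (SE 0.32, adjusted p = 0.29 by limma). Without fresh replicate 1 it was 0.86 and the call was lost. SMARCD2 had 7.46, 7.27 and 7.60 without gradient and 4.94, 6.20 and 7.24 fresh, so that the highest fresh array nearly reached the lowest one without gradient. Its log2FC was 1.32 (SE 0.56, adjusted p = 0.36), and 0.72 without fresh replicate 1.

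Both CHD genes that passed behaved alike on the fresh arrays, with replicate 1 low and replicate 3 high. CHD3 had 8.09, 7.86 and 8.06 without gradient and 5.78, 6.91 and 7.65 fresh, a log2FC of 1.23 (SE 0.51, adjusted p = 0.357 by limma), and 0.73 without fresh replicate 1. For CHD7 the signals were 7.98, 7.77 and 7.44 without gradient and 5.02, 6.18 and 6.82 fresh, a log2FC of 1.73 (SE 0.71, adjusted p = 0.351), and 1.23 without fresh replicate 1. Neither gene overlapped between conditions. The calls of CHD3 and SMARCD2 each ended in 6 of the 9 fits with 1 array removed, and that of CHD7 in 5, including those lacking fresh replicate 1 or 2 or any 1 array of the condition without gradient. The number of members past the criterion was 0 and 1 without fresh replicates 1 and 2 and 8 without fresh replicate 3. Removing replicate 1, 2 or 3 of the condition without gradient gave 2, 2 and 1, and removing gradient replicate 1 or 2 gave 9 and 2. Adjusting for the GAPDH difference of each array also gave 0.

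**Figure D2:**
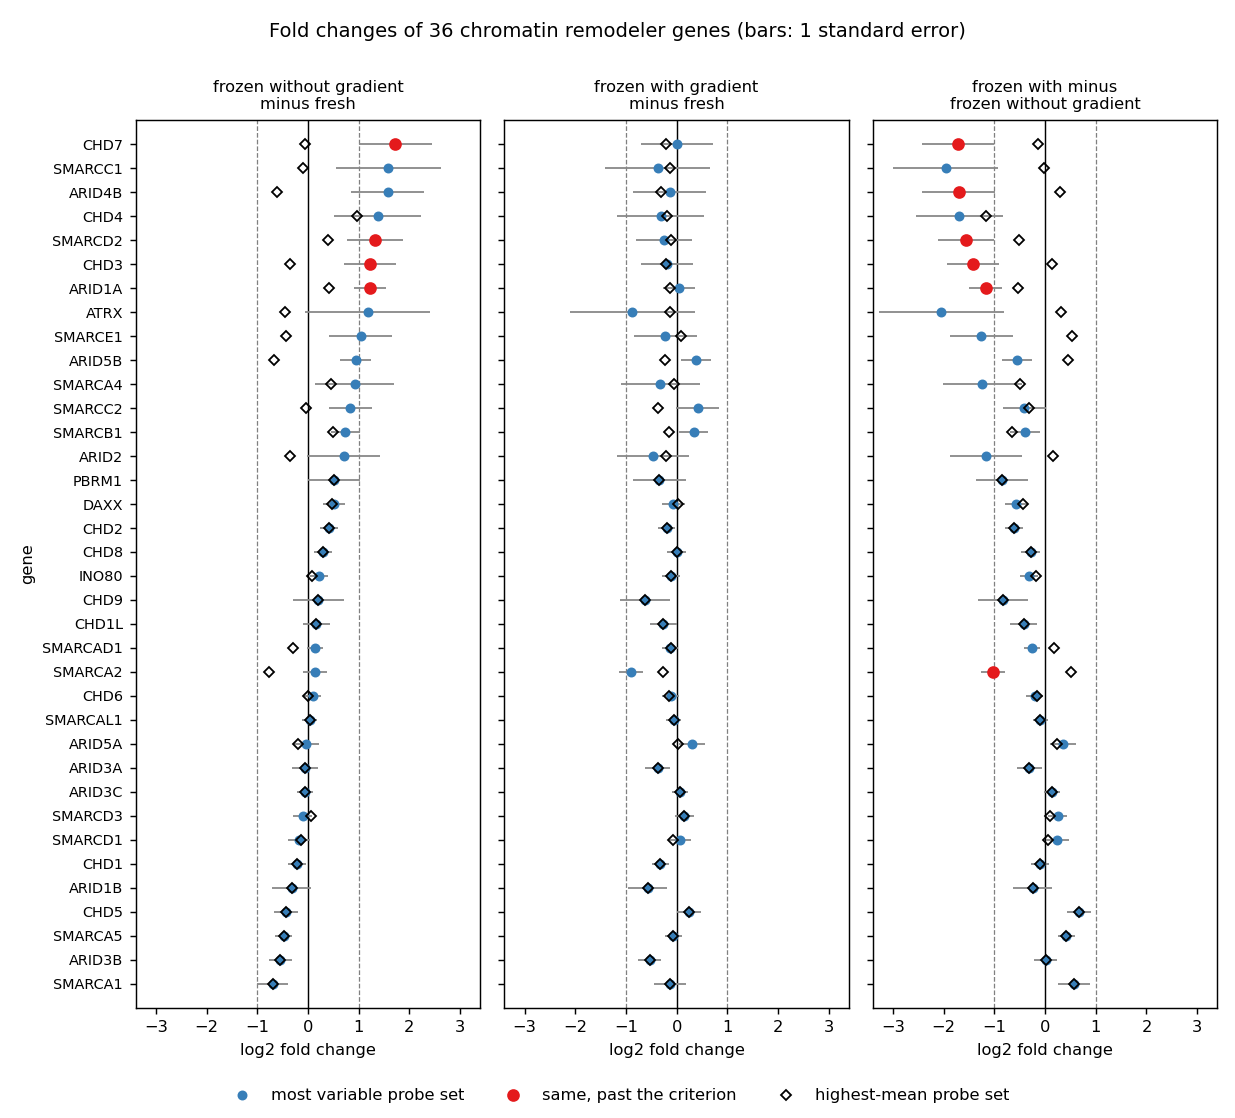
Log2 fold changes of 36 chromatin remodeler genes in 3 comparisons, with 1 row per gene ordered by the first comparison, for the most variable probe set (filled circles with 1 SE, red where the criterion was passed) and for the probe set with the highest mean (open diamonds). In the left panel 4 filled circles are red to the right of 1 and in the right panel 6 to the left of -1, while the diamonds of CHD3, CHD7, ARID4B and SMARCA2 lie near 0 or on the other side of it.

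The promoters of 3 of the 4 genes that passed without gradient against fresh are shown, since these genes passed in the same comparison. They are the 250 bases before the annotated start in RefSeq (GRCh38.p14), with capitals marking matches to the GC box GGGCGG, bound by Sp1, on either strand.
ARID1A, chr1:26695765-26696014, + strand: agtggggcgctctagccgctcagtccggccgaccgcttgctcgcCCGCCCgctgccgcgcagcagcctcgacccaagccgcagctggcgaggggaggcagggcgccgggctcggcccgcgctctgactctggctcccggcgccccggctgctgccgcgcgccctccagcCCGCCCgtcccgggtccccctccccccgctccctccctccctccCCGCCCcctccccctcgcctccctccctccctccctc
SMARCD2, chr17:63842686-63842935, - strand: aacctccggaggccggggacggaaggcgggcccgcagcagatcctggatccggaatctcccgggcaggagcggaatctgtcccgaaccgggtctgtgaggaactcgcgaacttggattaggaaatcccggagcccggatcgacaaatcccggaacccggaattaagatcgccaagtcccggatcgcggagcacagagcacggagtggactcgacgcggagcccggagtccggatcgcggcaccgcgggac
CHD3, chr17:7888539-7888788, + strand: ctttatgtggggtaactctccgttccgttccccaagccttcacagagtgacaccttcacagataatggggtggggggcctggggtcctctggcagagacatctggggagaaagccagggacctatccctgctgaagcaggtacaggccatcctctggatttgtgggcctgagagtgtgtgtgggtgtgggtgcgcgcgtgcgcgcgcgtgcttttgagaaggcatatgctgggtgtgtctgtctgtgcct
For CHD3 the table holds a start that lies inside the annotated gene, whose span is chr17:7884796-7912755. ARID1A held 3 GC boxes and was 80.4% G and C, and SMARCD2 (65.6%) and CHD3 (58.8%) held none. A window was found for 26 of 36 members, 1 per gene. Of these, 15 (57.7%) held a GC box, as did 42.3% of 27305 genes, and 7 (26.9%) held CCAAT on either strand, against 33.04%. The sequence TATAAA stood in 1 (3.85%), against 11.1%. The median content of G and C was 66.8% in the members and 58% in all genes. These are matches of letters, which show neither binding nor a shared control.

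Of 9 BAF motors and core subunits, 7 had a log2FC above 0 without gradient against fresh with the most variable probe set, and 4 with the highest-mean probe set (median 0.83 and -0.05). Of 7 core subunits 5 had a log2FC above 0 (median 0.83, from -0.18 to 1.59), and SMARCD2 alone passed. SMARCA4, the main motor of BAF, had log2 signals of 7.81, 10.85 and 11.05 with gradient, 11.03, 11.23 and 11.17 without gradient, and 9.47, 10.17 and 11.04 fresh. The SD of the 3 arrays without gradient was 0.10, whereas gradient replicate 1 lay far under all others. Its log2FC values were 0.92 without gradient and -0.32 with gradient against fresh, and -1.24 between the frozen conditions, with minus without gradient (SE 0.78 each), none of which passed. SMARCA2, the alternative motor, had 7.16, 7.60 and 7.92 with gradient, 8.89, 8.24 and 8.65 without gradient, and 8.40, 8.37 and 8.61 fresh. On the most variable probe sets it was the one member whose 3 gradient arrays all lay under all fresh arrays. Its log2FC of -0.90 (SE 0.23, adjusted p = 0.857 by limma) missed the fold required. The 8 probe sets of SMARCA2 had -0.90 to 0.13 in this comparison, and the highest-mean one had -0.27.

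SMARCB1, the core subunit lost in rhabdoid tumors, had signals of 7.04, 6.93 and 6.77 with gradient, 7.45, 7.17 and 7.32 without gradient, and 6.01, 6.45 and 7.28 fresh. Its log2FC values were 0.73 without gradient and 0.34 with gradient against fresh, and fresh replicate 3 lay within the range of the arrays without gradient. SMARCC1, a scaffold of the core, spanned 6.48, 10.30 and 10.73 with gradient, 10.99, 11.02 and 11.39 without gradient, and 8.45, 9.35 and 10.84 fresh. The conditions without gradient and fresh did not overlap in SMARCC1, yet the log2FC of 1.59 had an SE of 1.04 and did not pass. SMARCC2 and SMARCE1 had 0.83 and 1.03 without gradient against fresh without passing. In that comparison the highest-mean probe sets of SMARCC1, SMARCC2 and SMARCE1 had -0.10, -0.05 and -0.44, and that of SMARCB1 had 0.49. SMARCD1 and SMARCD3, alternatives to SMARCD2 in the core, had -0.18 and -0.10, from probe sets of low signal (mean log2 4.49 and 4.06). Their highest-mean probe sets had -0.13 and 0.05.

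Among the subunits that set BAF apart from PBAF, ARID1A passed and the others did not. ARID1B, the paralog of ARID1A, had 8.24, 9.49 and 9.92 with gradient, 9.09, 9.67 and 9.62 without gradient, and 9.62, 9.80 and 9.93 fresh, so that its log2FC without gradient against fresh was -0.32 (SE 0.39). The signals of PBRM1, the bromodomain subunit of PBAF, were 7.50, 9.42 and 9.60 with gradient, 9.48, 9.70 and 9.91 without gradient, and 8.66, 9.17 and 9.70 fresh. Conditions overlapped for both genes, with gradient replicate 1 the lowest array in each. ARID2, the other PBAF subunit, had a log2FC of 0.70 without gradient and -0.47 with gradient against fresh (SE 0.72). Its highest-mean probe set had -0.36 and -0.21 in these comparisons, and its remaining one had -0.75 and -0.56.

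In the CHD family 8 of 10 members had a log2FC above 0 without gradient against fresh with the most variable probe set, and 5 with the highest-mean one, where CHD3 (-0.35) and CHD7 (-0.06) were below 0. CHD4, the main NuRD motor, had 6.20, 9.11 and 9.58 with gradient, 9.64, 10.08 and 10.25 without gradient, and 7.63, 8.36 and 9.84 fresh. Its pattern over the arrays was that of SMARCA4 with a wider range, and the log2FC of 1.38 without gradient against fresh had an SE of 0.86. CHD5, the neuronal NuRD motor, went the other way, with 7.76, 7.29 and 6.94 with gradient, 6.78, 6.78 and 6.41 without gradient, and 7.38, 6.97 and 6.92 fresh. All 3 arrays without gradient lay under all others in CHD5, with log2FC values of -0.43 without gradient against fresh (SE 0.24) and 0.67 with against without gradient (SE 0.24, adjusted p = 0.244 by limma), neither past the criterion. The other probe sets of CHD5 had 0.63 and 0.55 without gradient against fresh, opposite in sign. CHD2 (0.41), CHD8 (0.29), CHD9 (0.20), CHD1L (0.16), CHD6 (0.09) and CHD1 (-0.22) were within 0.5 of 0 in that comparison. The probe set used for CHD6 had a low signal (mean log2 3.88).

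ATRX had the largest spread of all members. Its log2 signals were 4.41, 9.15 and 9.83 with gradient, 9.40, 10.06 and 10.08 without gradient, and 7.97, 8.25 and 9.80 fresh. Gradient replicate 1 lay over 3 units under the next array, and the conditions with and without gradient overlapped. The log2FC values of 1.18 without gradient and -0.88 with gradient against fresh, and -2.05 between the frozen conditions, with minus without gradient, each had an SE of 1.23, and none passed. DAXX, its partner in H3.3 deposition, had 7.39, 7.86 and 8.04 with gradient, 8.26, 8.33 and 8.40 without gradient, and 7.46, 7.91 and 8.10 fresh. The arrays without gradient were above all others, though the log2FC of 0.51 against fresh (SE 0.22, adjusted p = 0.369 by limma) was under the fold required.

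Outside BAF and the CHD family no motor passed. INO80, the motor of the complex of that name, had 3.0, 3.59 and 3.37 with gradient, 3.67, 3.46 and 3.78 without gradient, and 3.46, 3.36 and 3.46 fresh, with overlap between all conditions, and its highest-mean probe set had 0.08 without gradient against fresh. SMARCA5 and SMARCA1, the ISWI motors, had log2FC values of -0.48 (SE 0.17) and -0.70 (SE 0.31) without gradient against fresh. The repair-linked SMARCAD1 and SMARCAL1 had 0.13 and 0.03. For SMARCAD1 this came from a probe set of low signal (mean log2 3.62), and its highest-mean probe set had -0.29. Of the ARID proteins outside BAF, ARID4B and ARID5B, a DNA-binding partner of histone demethylase PHF2, had 1.57 and 0.94, while ARID3A, ARID3B, ARID3C and ARID5A had -0.55 to -0.04. The highest-mean probe sets of ARID4B and ARID5B had the opposite sign, with -0.60 and -0.68.

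In the arrays labelled frozen with gradient, no remodeler gene rose or fell against the fresh arrays. At the same criterion 0.0386% of all genes were higher and 0.0496% lower. No member had an adjusted p under 0.05, and ARID3B and SMARCA2, 2 of 36, had an unadjusted p under 0.05, against 3.65% of all genes. No member lay above all fresh arrays (3.82% of all genes) and SMARCA2 lay below them (2.97%). The median log2FC of the members was -0.13, with 26 of 36 below 0, where the median of all genes was 0.02 and 47.5% were below 0. The range was -0.90 (SMARCA2) to 0.42 (SMARCC2). Without gradient replicate 3, SMARCA2 passed with -1.08. In these arrays the low replicate 1 with gradient stood against a low replicate 1 among the fresh arrays, with GAPDH differences of 6.73 and 4.92.

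With against without gradient, 6 remodeler genes fell and none rose: ARID1A, SMARCD2, SMARCA2, CHD3, CHD7 and ARID4B, a subunit of the SIN3 deacetylase complex. Among all genes 4.24% were lower and 0.105% higher. No member had an adjusted p under 0.05, and 10 of 36 had an unadjusted p under 0.05, against 20.2% of all genes. Lower in all gradient arrays than in any without gradient were 13 members, where 15.7% of all genes were, and higher were 3, CHD5, SMARCA1 and SMARCA5, where 19.9% were. The median log2FC of the members was -0.42, with 28 of 36 below 0, and that of all genes was 0.15, with 37.4% below 0. ARID1A, SMARCD2, CHD3 and CHD7 had also passed without gradient against fresh, and both comparisons share the arrays without gradient.

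ARID1A had 4.98, 4.76 and 5.52 with gradient and 6.35, 6.15 and 6.28 without gradient, a log2FC of -1.17 (SE 0.32, adjusted p = 0.244 by limma). Its call was kept in all 9 fits that left out 1 array. The 3 gradient arrays of ARID1A were all low, replicate 2 the lowest. SMARCA2 likewise had all 3 gradient arrays under those without, and its log2FC was -1.03 (SE 0.23, adjusted p = 0.244), or -0.83 without gradient replicate 1 and -0.88 without replicate 1 of the arrays without gradient, both under the fold required.

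In the other 4 genes the difference was smaller without gradient replicate 1. SMARCD2 had 5.07, 5.96 and 6.60 with gradient and 7.46, 7.27 and 7.60 without gradient, with a log2FC of -1.56 (SE 0.56) and -1.16 without gradient replicate 1. CHD3 had 5.67, 6.70 and 7.39 with gradient and 8.09, 7.86 and 8.06 without gradient, -1.42 (SE 0.51) and -0.96 without that array. In CHD7 the signals were 4.25, 6.84 and 6.96 with gradient and 7.98, 7.77 and 7.44 without gradient, -1.71 (SE 0.71) and -0.83 without it. ARID4B had 4.60, 7.07 and 7.62 with gradient and 8.10, 7.96 and 8.34 without gradient, -1.71 (SE 0.72) and -0.79 without it. None of these 4 genes overlapped between the conditions, and all 4 calls were lost without gradient replicate 1. The number of members past the criterion was 1 without gradient replicate 1, which left ARID1A, 13 without gradient replicate 3, and 2 on removing either replicate 1 or replicate 3 of the condition without gradient. The calls of ARID4B and CHD7 were lost in 6 and 5 of 9 such fits, CHD3 in 3 and SMARCD2 in 2. With the replicate number as a block 11 members passed, all 6 among them, and after adjusting for the GAPDH difference 0 passed.

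**Figure D3:**
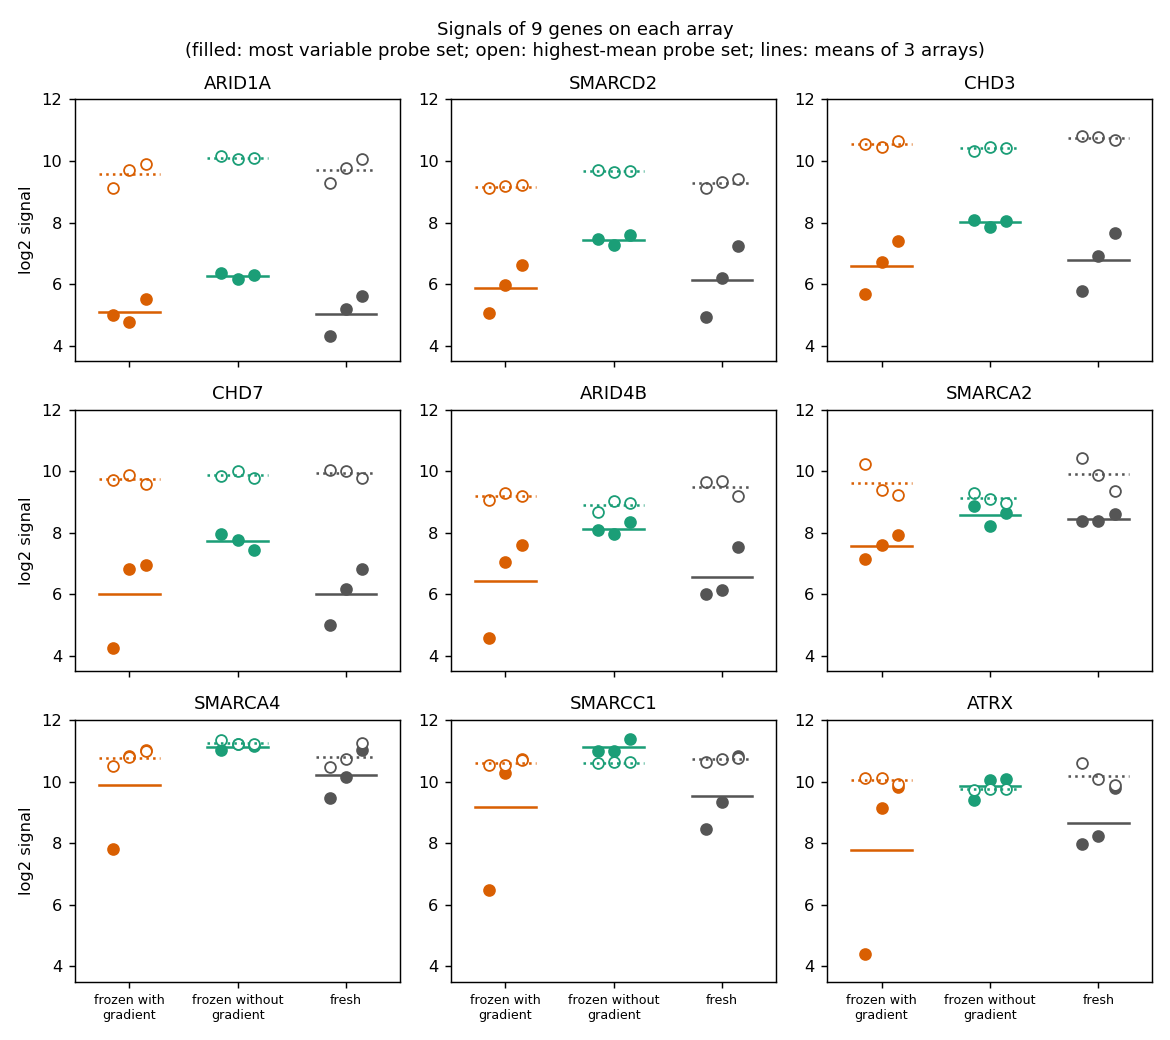
Log2 signals of 9 remodeler genes on each array by condition, for the most variable probe set (filled, full line at the mean of 3 arrays) and the probe set with the highest mean (open, dotted line). In CHD7, ARID4B and ATRX the filled points of gradient replicate 1 lie at 4.25, 4.60 and 4.41, the lowest of each gene, while the open points of the same arrays stay together.

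The outcome depended on which probe set stood for a gene. Of the 36 members 31 had more than 1 probe set, up to 8, and in 22 of these the most variable one, used above, was not the one with the highest mean. Over these 22 genes the median log2FC without gradient against fresh was 0.87 with the most variable and -0.08 with the highest-mean probe set, and in 13 genes both had opposite signs. With gradient against fresh both were close, -0.12 and -0.14, with opposite signs in 8. For with against without gradient they were -1.10 and 0.02, with opposite signs in 8. A probe set taken for its variability has a larger spread by that choice alone. The positions of the probe sets along the messages were not given in the sources used here, and levels of different probe sets are not compared.

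ARID4B shows the contrast between 2 probe sets of 1 gene. Its highest-mean probe set had 9.06, 9.30 and 9.20 with gradient, 8.69, 9.04 and 8.97 without gradient, and 9.65, 9.68 and 9.19 fresh. Gradient replicate 1, at 4.60 in the most variable probe set, lay within the range of the other arrays here, and the log2FC values were -0.60 without gradient against fresh, and 0.29 for with minus without gradient. ATRX, with 8 probe sets, had log2FC values from -0.45 to 1.18 without gradient against fresh, and -2.05 to 0.31 for with minus without gradient. Its highest-mean probe set had 10.12, 10.14 and 9.94 with gradient, 9.72, 9.77 and 9.76 without gradient, and 10.61, 10.11 and 9.89 fresh.

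In ARID1A, SMARCD2, SMARCA4, CHD4 and DAXX the probe sets pointed the same way without gradient against fresh, with different sizes. For ARID1A, the 6 probe sets had 0.11 to 1.22 without gradient against fresh, and the highest-mean one had 0.40. Between the frozen conditions, with minus without gradient, these ARID1A probe sets had -1.17 to 0.24, and the highest-mean one -0.53. SMARCD2 had 0.40 to 1.32 in its 3 probe sets without gradient against fresh, and -1.56 to -0.51 with against without gradient. All 6 probe sets of SMARCA4 pointed the same way as well, with 0.45 to 1.57 without gradient against fresh, and -1.33 to -0.50 for with minus without gradient. Its most variable probe set had 0.92 and -1.24, so that others went further. In the same comparisons the 3 probe sets of CHD4 had 0.97 to 1.38 and -1.69 to -0.84. Those of DAXX had 0.47 to 0.59 and -0.57 to -0.32. By contrast, CHD3 (-0.35) and CHD7 (-0.06) had the opposite sign in their highest-mean probe sets without gradient against fresh.

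Tested probe set by probe set, 6 of 127 were higher and 0 lower without gradient against fresh, where 1.38% and 0.144% of all probe sets were. These belonged to ARID1A, CHD3, CHD7, SMARCA4 and SMARCD2. With gradient against fresh 0 were higher and 0 lower, where 0.02% and 0.0267% of all were. With against without gradient 0 were higher and 9 lower, where 0.0622% and 2.66% were, and these belonged to the 6 genes named and to SMARCA4. With the highest-mean probe set of each gene, 0 members passed in any comparison, and the member medians were -0.07 without gradient and -0.15 with gradient against fresh, and -0.10 between the frozen conditions, with minus without gradient. With the mean of all probe sets of a gene, 0, 0 and 1 passed, the last being SMARCD2.

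**Figure D4:**
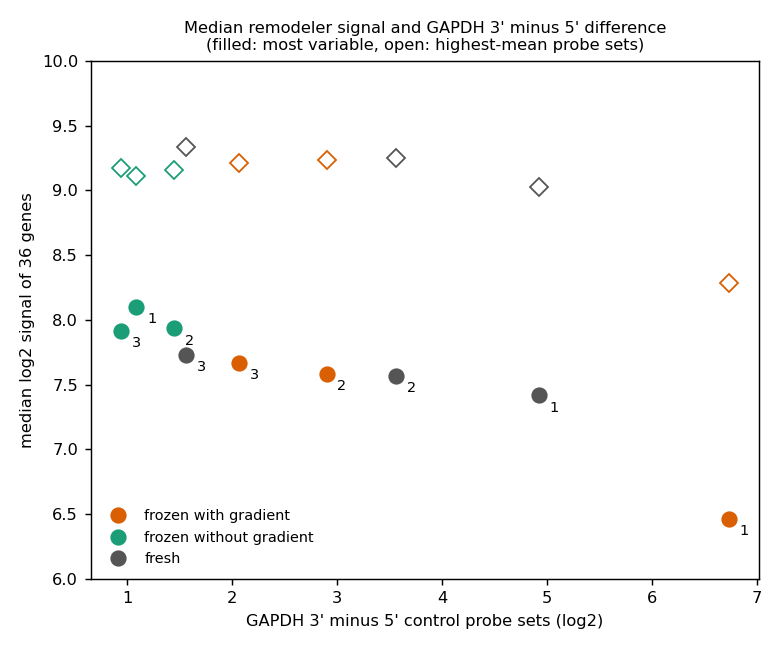
Median log2 signal of the 36 remodeler genes on each array (y axis) against the GAPDH 3' minus 5' difference of that array (x axis, log2), with filled circles for the most variable and open diamonds for the highest-mean probe sets and numbers for replicates. The filled circles lie at 7.91 to 8.10 on the 3 arrays without gradient, whose GAPDH differences are 0.94 to 1.45, and at 6.46 on gradient replicate 1, whose difference is 6.73.

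Across the members, the relation of the length of the annotated gene to the fold change was weak to moderate, depending on the comparison. The Spearman correlation over 36 genes was 0.16 without gradient and -0.44 with gradient against fresh, and -0.31 between the frozen conditions, with minus without gradient. For the mean signal of the gene in place of its length, it was -0.06, -0.58 and -0.16 in the same comparisons. These values describe the genes on the same 9 arrays, and long genes are not necessarily long messages.

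Partners of the remodelers outside the families were read from 5 lists with 68 genes in all, each gene measured. Of 18 further BAF and PBAF subunits, 0 passed against fresh in either frozen condition, and 1 fell with against without gradient, where 4.24% of all genes did. This was ACTB, the actin that is also a BAF subunit, with 6.31, 9.66 and 10.50 with gradient and 11.63, 11.22 and 11.72 without gradient (log2FC -2.70, SE 1.07, adjusted p = 0.244 by limma). ACTB was also low in gradient replicate 1. Of 12 further NuRD subunits 2 rose without gradient against fresh and the same 2 fell with against without gradient, namely HDAC1, a deacetylase, and GATAD2B, a scaffold. Among all genes 2.19% rose and 4.24% fell in these comparisons, which share the arrays without gradient. HDAC1 had log2FC values of 1.24 and -1.58 (SE 0.47 each) in these comparisons, against 0.22 and -0.06 for its highest-mean probe set. GATAD2B had 1.28 and -1.30 (SE 0.41 each), against -0.14 and -0.09.

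Of 10 ISWI partners none passed in any comparison, and their median log2FC was 0.90 without gradient against fresh, and -1.27 for with minus without gradient, where the medians of all genes were -0.08 and 0.15. With the highest-mean probe sets the medians of these 10 genes were 0.04 and -0.10. Of 20 INO80 and SRCAP subunits VPS72, which handles the histone variant H2A.Z, fell with against without gradient by 1.16 on the log2 scale (SE 0.29), 1 gene of 20 where 4.24% of all genes fell. Its signals were 7.55, 7.89 and 8.40 with gradient and 9.32, 8.92 and 9.09 without gradient. Of 8 genes for H3.3 and its deposition ASF1B, a histone chaperone, fell with against without gradient by 1.01 on the log2 scale (SE 0.32), 1 gene of 8, with 5.46, 6.40 and 6.98 with gradient and 7.31, 7.29 and 7.24 without gradient. No gene of the 5 lists passed with gradient against fresh.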

How the data were processed

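Total RNA (100 ng per sample) of bead-enriched LAN-1 cells was hybridized to 9 PrimeView arrays, in 3 biological replicates per condition. The deposited values are log2 signals, which the authors obtained by RMA, that is background correction, quantile normalization and summarization of the probes of a set. These values were used as they are, so no other background correction was tried. The number of arrays, 3 per condition, limits the precision. Control probe sets (102), those with several gene symbols (1832) and those with none (2473) were left out of 49395, and each gene was represented by its most variable probe set, following the study's methods. With R 4.3.3 and limma 3.58.1, 3 condition means were fitted over 18132 genes, with Benjamini-Hochberg adjustment. The procedure was tested on simulated data with noise drawn separately for each gene and array. These held no deviation shared by a whole array, so this test does not bear on such deviations.

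The members, the lists of partners and markers, the tests and the alternatives were chosen with earlier results of these data known. Values on every array are given for members past the criterion and for 12 genes named beforehand by role. Members are described by counts and medians beside those of all genes. Conditions are those of the deposited labels, which were not tested against the arrays. Between arrays with and without gradient, deviations from the condition means correlated at 0.422, 0.207 and 0.496 for replicates 1, 2 and 3. For arrays of different number they correlated at -0.457 to 0.114. Whether the replicate number pairs these arrays was not settled by these values. The main fit held no term for the replicate number. Alternatives for the probe set were the highest-mean one, the mean over all of a gene and each set by itself. Others were cyclic loess, centring on medians, a minimum mean log2 of 5, robust eBayes with a trend, weights per array, a replicate block, a fit of only the 6 arrays compared, a GAPDH covariate (3' minus 5' difference), each array left out and, added after seeing the data, both arrays of largest GAPDH difference left out. Promoter sequences came from RefSeq (GRCh38.p14).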

Additional observations from a re-analysis of the deposited data

Results flagged for a closer look

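For 6 genes the effect against the fresh arrays differed between the frozen conditions, by the same limma contrast as with against without gradient. The difference, with gradient minus without gradient, was -1.17 on the log2 scale for ARID1A, -1.71 for ARID4B, -1.42 for CHD3, -1.71 for CHD7, -1.03 for SMARCA2 and -1.56 for SMARCD2, at unadjusted p values of 0.00553, 0.0431, 0.023, 0.0403, 0.00182 and 0.0211. By limma none had an adjusted p under 0.05. In all 6 the highest-mean probe set of the gene gave a smaller difference, from -0.53 for ARID1A to 0.50 for SMARCA2. The GAPDH 3' minus 5' difference averaged 3.90 ± 2.49 with gradient and 1.16 ± 0.26 without gradient (SD, n = 3 each). With this difference as a covariate none of the 6 genes passed, and its part in these values was not tested further.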

How the results depend on the processing

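The choice of probe set and single arrays moved the counts of members past the criterion. Without gradient against fresh, 4 became 0 with the highest-mean probe set, 0 with the mean of all probe sets, 0 with the GAPDH difference as a covariate, 7 with the replicate block, 9 with only the 6 arrays compared and 10 with array weights, and leaving out 1 array gave 0 to 9. With gradient against fresh, 0 became 1 with array weights (ARID5B), and leaving out 1 array gave 0 to 1. For with against without gradient, 6 became 0 with the highest-mean probe set, 1 with the mean of all probe sets, 0 with the GAPDH covariate, 11 with the replicate block, and 2 without both arrays of largest GAPDH difference, an alternative chosen after seeing the data. Leaving out 1 array gave 1 to 13. The replicate block kept 0 with gradient against fresh. Arrays with the same number in the comparisons with fresh deviated together for replicates 1 (0.739 with and 0.425 without gradient) and 3 (0.798 and 0.547). For replicate 2 they hardly did (0.00886 and 0.0446). The study describes 3 biological replicates and the 3 conditions. Whether fresh arrays pair with frozen ones by number was not settled by these values.

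Among the calls named, signs turned only with the highest-mean probe set: ARID4B 0.29, CHD3 0.14 and SMARCA2 0.50 with against without gradient, and CHD3 -0.35 and CHD7 -0.058 without gradient against fresh. The cause was not tested. Values that had not passed turned sign under several alternatives, for example, on leaving out replicate 1 of the gradient arrays, in ATRX (0.82), CHD4 (0.73) and SMARCA4 (0.72) with gradient against fresh, and in ARID1B (0.25) with against without gradient. Cyclic loess, median centring, the filter at a mean log2 of 5 and the intensity trend kept each count within 1.5 times of its value. The member median without gradient against fresh, 0.25, moved by more than the spread between these arrays to -0.065 with the highest-mean probe set, -0.0062 with the GAPDH covariate and 0.52 with the filter at a mean log2 of 5. The other shifts of the member medians were smaller than the spread between the arrays compared, which with gradient is wide. Low signals, as in ARID3C and the most variable probe sets of INO80, SMARCAD1, CHD6, SMARCD1, SMARCD3 and ARID5A, limit what the arrays can show.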
